A study of Mus musculus with 16 samples.

Results

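The comparison described here is what docosahexaenoyl serotonin (DHA5HT) changed in macrophages that were at the same time exposed to bacterial lipopolysaccharide (LPS). It sets 4 arrays titled LPS+DHA5HT against 4 arrays titled LPS, 8 of the 16 arrays of the series, and it covers all 18820 genes to which the arrays' probe sets could be joined. The cells were RAW264.7, an established macrophage-like line of mouse origin, so every array comes from the same line. Per the treatment protocol, the LPS arrays hold cells given LPS at 1 µg/ml with vehicle, and the LPS+DHA5HT arrays hold cells given LPS at 1 µg/ml with DHA5HT at 1 µM, each for 24 h. The other 8 arrays hold cells given vehicle only (control, labelled as ethanol at 0.1% by volume) or DHA5HT at 1 µM only (DHA5HT), also for 24 h. They entered the estimate of the spread and are shown beside the results. The labels of the LPS arrays name no vehicle, and the protocol names no solvent.

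Groups followed the sample titles. For LPS+DHA5HT array 1 the title names both agents while its treatment label names DHA5HT only. On that array Il6, a cytokine gene that is off in unstimulated macrophages, lay at 10.21 on the log2 scale of the arrays, beside 10.55, 10.46 and 10.17 on the other LPS+DHA5HT arrays and 2.95, 3.21, 2.83 and 3.16 on the arrays of cells given DHA5HT without LPS. LPS+DHA5HT array 4 stood apart from the rest: it lay at −22.42 on the second principal component of the 16 arrays, where the other 15 lay between −9.36 and 10.02. Counts are therefore also given without array 1 and without array 4. Where a call depends on single arrays, those arrays are named by group and number, as in LPS 2 or LPS+DHA5HT 4, and the highest adjusted p without one of them is given.

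LPS is sensed by Toll-like receptor 4 on macrophages, which activates NF-kB, MAP kinases and interferon regulatory factors and so switches on cytokine, chemokine, antiviral and nitric oxide genes. DHA5HT is an amide of docosahexaenoic acid, an n-3 fatty acid, with serotonin. Other genes of a stimulated macrophage work against the stimulus, among them RNA-binding proteins that shorten the life of cytokine transcripts, and enzymes that make glutathione and NADPH to handle oxidants. The study's title names IL-23 and IL-17 signalling, so those genes come first below.

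All values are RMA summaries of Affymetrix whole-transcript arrays on a log2 scale, so a difference of 1 means a 2-fold difference. They ran from 1.20 to 13.68, the median gene lay at 5.24, and 25 marker genes of cell types other than macrophages had a median level of 3.76. The means of those 25 genes ran from 2.77 to 5.35, so the level is approximate. A gene whose mean is below 3.76 in a group is not above that level there, and its change is then a lower bound. The 12 macrophage markers, such as Cd68 and Csf1r, had a mean level of 11.38 to 11.47 on LPS arrays and 11.39 to 11.44 on LPS+DHA5HT arrays. The lists of T and NK, B, epithelial, fibroblast, endothelial and neutrophil markers lay between 3.22 and 4.70 on both kinds of array. Of these markers only Pecam1, a cell adhesion gene on the endothelial list that macrophages also express, differed between the groups. In RNA from whole cultures, fewer cells of a kind and less RNA per cell cannot be told apart. Nothing in the labels says that arrays 1 to 4 of a group were separate cultures. P-values therefore measure the spread between these arrays, and their number limits the precision.

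With DHA5HT, LPS-treated cells had lower levels of both IL-23 subunit genes and Il6, of 9 of 38 immediate early genes, of 6 of 22 small proline-rich and cornified envelope genes and of 7 of 54 interferon-response genes. They had higher levels of 8 of 38 glutathione genes, of 10 of 45 thioredoxin, NADPH and quinone genes and of 7 of 40 DNA replication genes. A gene is called here when its limma p, adjusted by Benjamini-Hochberg over the 18820 genes, is under 0.05. By that rule 337 genes were called, 1.79% of all: 183 were lower with DHA5HT (0.972%) and 154 were higher (0.818%). The decreases were larger than the increases. Their median was −0.48 against 0.36, and 30 genes were at least 2-fold lower while 3 were at least 2-fold higher. The 4 arrays of one group lay entirely above or below the 4 of the other for 316 of the 337 called genes, and for 1484 of all genes (7.89%). The median change over all genes was 0.00. Arrays with the same replicate number tended to deviate together, but the main test holds no block. With that number as a block 647 genes were called (3.44%), 323 higher and 324 lower, which included 336 of the 337. The estimate of the spread drew on all 16 arrays. Every SE given here rests on it and can lie above or below what the 8 compared arrays alone would give. Fitted on the 8 compared arrays alone, limma called 86 genes, 73 lower and 13 higher. Of the 200 genes named in these results 139 were called, and 55 of those were called in that fit while 84 were not. When a call is said below to hold without single arrays, those fits kept the other groups' arrays for the spread, and 24 of the 69 named genes that held in this way were not called on the 8 compared arrays alone: Akr1b8, Arntl, Bid, Ccne1, Cd300e, Clspn, Creg1, Csf3, Daxx, Gbp5, Gclm, Gstm3, Kynu, Nfkbiz, Pgd, Slc7a2, Sprr2g, Stfa3, Taldo1, Trem2, Ung, Ust, Wdhd1 and Zfp36l2.

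**Figure D1:**
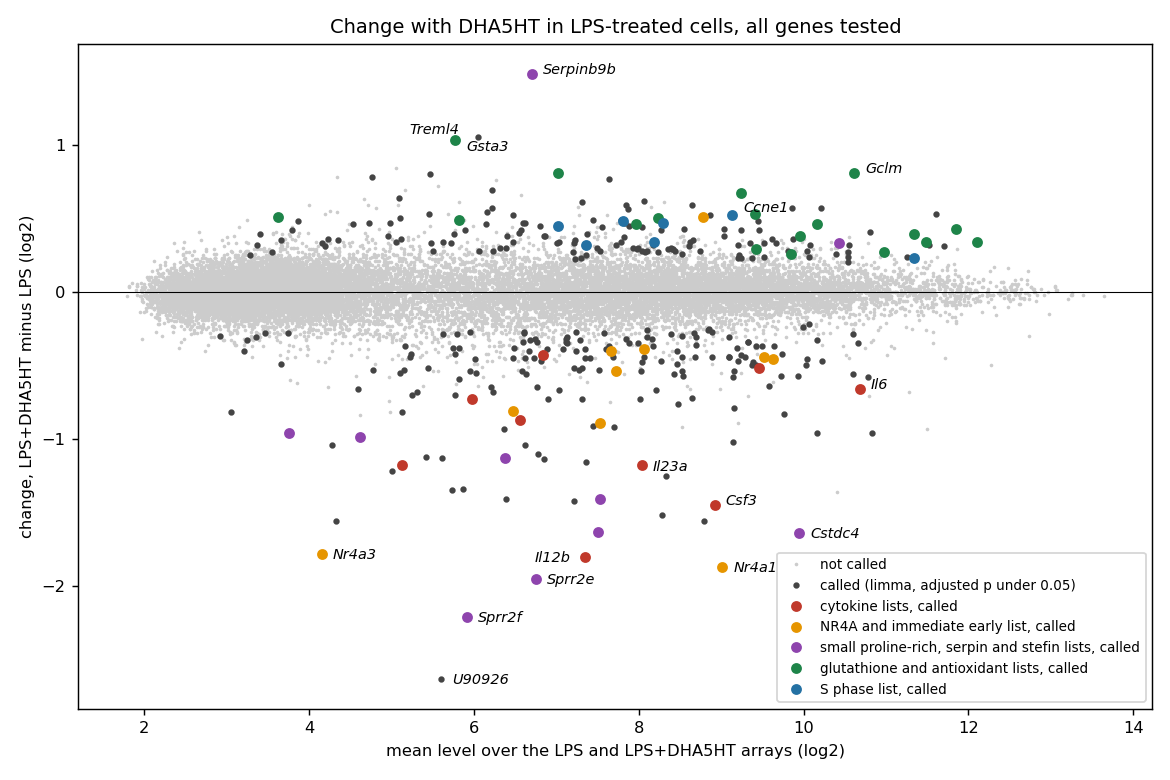
Change with DHA5HT in LPS-treated cells (LPS+DHA5HT mean minus LPS mean, log2, vertical axis) against the mean level over the 8 arrays compared (log2, horizontal axis) for 18820 genes. Grey points are genes that were not called, dark and coloured points are the 337 called genes, with colours for gene lists. The largest decreases reach −2.63 (U90926) and the largest increase is 1.48 (Serpinb9b), and the called glutathione, antioxidant and S phase genes all lie above 0.

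Both subunit genes of IL-23 fell. IL-23 is a dimer of the Il23a and Il12b products, while the Il12b product with that of Il12a makes IL-12. Il12b lay at 8.06, 8.42, 8.39 and 8.13 on LPS arrays 1 to 4 and at 6.37, 7.04, 6.50 and 5.87 on LPS+DHA5HT arrays 1 to 4. The ranges did not meet, and within the LPS+DHA5HT group array 4 was lowest and array 2 highest. Il12b was 3.49-fold lower (−1.80, SE 0.18, limma adjusted p = 4.62e-05). Il23a lay at 8.44, 8.93, 8.54 and 8.62 on LPS arrays 1 to 4 and at 7.17, 7.78, 7.55 and 7.31 on LPS+DHA5HT arrays 1 to 4, again without overlap, 2.26-fold lower (−1.18, SE 0.12, adjusted p = 3.96e-05). Both remained well above their control levels of 4.30 ± 0.21 and 4.70 ± 0.07 (SD, n = 4). Il12a, the other partner of Il12b, was at 3.90 ± 0.24 and 3.75 ± 0.11 (SD, n = 4 each), close to the level of 3.76, with a change of −0.15 (adjusted p = 0.624).

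Il27, which encodes a subunit of IL-27, lay at 6.92, 7.31, 7.02 and 6.72 on LPS arrays 1 to 4 and at 6.50, 6.07, 6.40 and 5.53 on LPS+DHA5HT arrays 1 to 4. The groups did not overlap, and the change was −0.87 (SE 0.19, adjusted p = 0.0267). Its call was lost without LPS 2, LPS 3, LPS+DHA5HT 2 or LPS+DHA5HT 4 (changes from −0.99 to −0.67, highest adjusted p = 0.091). The IL-23 and IL-12 list has 13 measured genes, of which these 3 fell and 0 rose, with a median change of −0.24. With the replicate block 5 fell, the others being Ebi3, the partner of the Il27 product (−0.28, adjusted p = 0.0358 with the block), and Stat3, a transcription factor that transmits the IL-23 signal (−0.25, adjusted p = 0.0445 with the block). The IL-23 receptor gene Il23r was at 5.11 ± 0.31 and 4.82 ± 0.29 (SD, n = 4), with a change of −0.29 (SE 0.15, adjusted p = 0.423). Among 13 IL-17 cytokines, receptors and adaptors 0 were called, also with the block, and the median was −0.02. Il17a lay at 4.15 ± 0.06 and 4.00 ± 0.17, near the level of genes that macrophages do not express. The receptor gene Il17ra changed by −0.12 (SE 0.17) and the adaptor gene Traf3ip2 by −0.11 (SE 0.07).

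**Figure D2:**
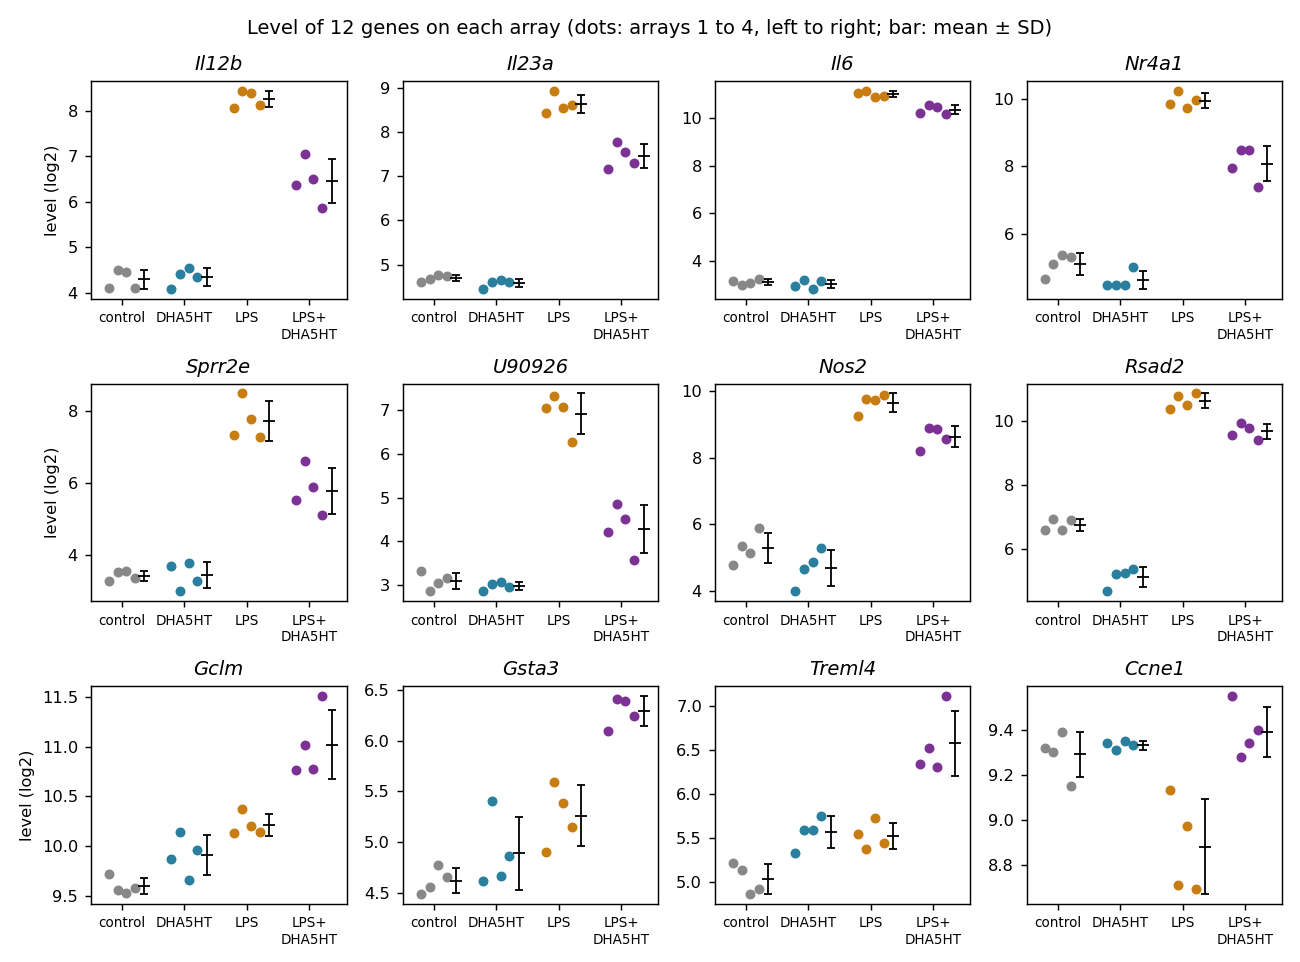
Level of 12 genes (log2, vertical axis, with a range of its own in each panel) on each array of the 4 groups. Dots are arrays 1 to 4 from left to right and bars are the mean ± SD of 4 arrays. In the LPS+DHA5HT group Il12b, Il23a, Il6, Nr4a1, Sprr2e, U90926, Nos2 and Rsad2 lie below the LPS group and Gclm, Gsta3, Treml4 and Ccne1 above it, with no overlap in any of the 12.

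Among IL-6 family ligands 3 fell. Il6 lay at 11.07, 11.15, 10.89 and 10.93 on LPS arrays 1 to 4 and at 10.21, 10.55, 10.46 and 10.17 on LPS+DHA5HT arrays 1 to 4. The groups did not overlap, and the change was −0.66 (SE 0.10, 1.58-fold lower, adjusted p = 0.00278). Lif, which encodes leukemia inhibitory factor, was much dimmer and fell from 5.72 ± 0.32 to 4.54 ± 0.33 (SD, n = 4), 2.26-fold (adjusted p = 0.00258). Osm, which encodes oncostatin M, changed by −0.52 (adjusted p = 0.0381), a call lost without LPS 1, LPS 2, LPS 3, LPS 4, LPS+DHA5HT 1, LPS+DHA5HT 3 or LPS+DHA5HT 4 (highest adjusted p = 0.123). These were the 3 called genes among 10 of the family, and 0 rose. Of 12 genes of the colony-stimulating factor list 1 fell. It was Csf3, the granulocyte factor, at 9.65, 9.93, 9.87 and 9.15 on LPS arrays 1 to 4 and at 8.08, 8.60, 8.76 and 7.36 on LPS+DHA5HT arrays 1 to 4, a change of −1.45 (SE 0.23, adjusted p = 0.00366) with no overlap between groups. Csf2, the granulocyte-macrophage factor, changed by −0.89 (SE 0.23, adjusted p = 0.0625) and was called with the block (adjusted p = 0.0437).

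In the interleukin-1 family 2 of 16 genes fell. They were Il1f6, which encodes the alpha form of interleukin-36 (−0.73, adjusted p = 0.0355), and the receptor accessory chain gene Il1rap (−0.43, adjusted p = 0.0235). Neither was called without LPS+DHA5HT array 1 or array 4 (adjusted p = 0.0569 and 0.0609 for Il1f6, 0.0519 and 0.0717 for Il1rap), and LPS arrays 2 and 3 also decided both calls, with LPS array 1 for Il1f6 (highest adjusted p = 0.111 and 0.0717). With the block the list had 4, adding Il1a, which encodes interleukin-1 alpha (−0.93, adjusted p = 0.0201 with the block), and Il1rn, the receptor antagonist (−0.38, adjusted p = 0.0174 with the block). Il1a lay at 11.96 ± 0.08 on LPS and 11.03 ± 0.66 on LPS+DHA5HT arrays (SD, n = 4), where array 4 was the lowest at 10.07. In the TNF superfamily 1 of 29 genes was called and 0 rose. Tnfsf15, a ligand of death receptor 3, fell from 8.16 ± 0.22 to 7.24 ± 0.15 (SD, n = 4), 1.89-fold (adjusted p = 0.000489). With the block 4 members fell, among them Cd40 (−0.31, adjusted p = 0.0428 with the block).

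Of 18 CC chemokine genes 14 had a change below 0, the median was −0.07, and 1 was called, Ccl22, a ligand of the receptor CCR4, which lay at 7.39, 6.64, 7.68 and 6.85 on LPS arrays 1 to 4 and at 6.29, 5.89, 6.79 and 5.44 on LPS+DHA5HT arrays 1 to 4. The groups overlapped, since LPS+DHA5HT array 3 was above LPS array 2. Its change of −1.04 (SE 0.24, adjusted p = 0.0345) lost its call without LPS 1, LPS 3, LPS+DHA5HT 1, LPS+DHA5HT 2 or LPS+DHA5HT 4 (highest adjusted p = 0.0993). With the block Ccl7 was called as well (−0.71, adjusted p = 0.0418). Of 16 CXC chemokine genes 13 had a change below 0, with a median of −0.13. In the main test 0 of them were called, and with the block 2 were, the neutrophil attractant Cxcl3 (−0.82, adjusted p = 0.0269) and the T cell attractant Cxcl10 (−0.68, adjusted p = 0.0425). The bright chemokine genes Ccl3 and Ccl4 changed by −0.02 (SE 0.05) and −0.08 (SE 0.08).

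Immediate early genes are transcribed within minutes of a stimulus and then shut off. Of 38 genes of the NR4A and immediate early list 9 fell and 1 rose (11 and 2 with the block), with a median of −0.21. The mean level of the 38 genes was 7.51, 7.59, 7.44 and 7.54 on LPS arrays 1 to 4 and 7.20, 7.31, 7.25 and 7.22 on LPS+DHA5HT arrays 1 to 4, so the groups did not overlap. Without LPS+DHA5HT array 1 the list had 5 calls, all lower, without array 4 it had 4, all lower, and without both it had 2. The list was led by the orphan nuclear receptors. Nr4a1, also known as Nur77, lay at 9.86, 10.24, 9.73 and 9.97 on LPS arrays 1 to 4 and at 7.96, 8.49, 8.49 and 7.38 on LPS+DHA5HT arrays 1 to 4, 3.66-fold lower (−1.87, SE 0.22, adjusted p = 0.000192). Nr4a3 lay at 4.96, 4.64, 5.14 and 5.46 on LPS arrays 1 to 4 and at 3.12, 3.35, 3.63 and 2.97 on LPS+DHA5HT arrays 1 to 4. Its LPS+DHA5HT mean was below 3.76, so the change of −1.78 (SE 0.15, adjusted p = 8.48e-06) is a lower bound. The third member of the family, Nr4a2, changed by −0.17 (SE 0.09, adjusted p = 0.457).

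The AP-1 subunit gene Fos fell from 6.88 ± 0.07 to 6.07 ± 0.28 (SD, n = 4; adjusted p = 0.0058) and the stress response gene Gadd45b from 9.75 ± 0.09 to 9.30 ± 0.07 (adjusted p = 0.00637). These calls, like those of Nr4a1 and Nr4a3, held whichever of the 8 arrays was left out. The zinc finger factor gene Egr1 changed by −0.89, the AP-1 subunit gene Junb by −0.40, the antiproliferative gene Btg2 by −0.39, Phlda1 by −0.46 and Id3, an inhibitor of basic helix-loop-helix factors, by −0.54 (adjusted p = 0.0199, 0.0262, 0.0193, 0.0268 and 0.038). Egr1 lost its call without LPS 2, LPS 3, LPS+DHA5HT 1 or LPS+DHA5HT 4, Junb without LPS 2, LPS 4, LPS+DHA5HT 1 or LPS+DHA5HT 4, Btg2 without LPS 4 or LPS+DHA5HT 4, Phlda1 without LPS 1, LPS 2, LPS+DHA5HT 1 or LPS+DHA5HT 4 and Id3 without LPS 1, LPS 2, LPS 4, LPS+DHA5HT 1, LPS+DHA5HT 2, LPS+DHA5HT 3 or LPS+DHA5HT 4 (highest adjusted p = 0.069, 0.0885, 0.0624, 0.091 and 0.105). The growth regulator gene Myc was the member that rose, by 0.51 (SE 0.11, adjusted p = 0.0337). Its groups overlapped, and the call was lost without LPS 2, LPS 3, LPS 4, LPS+DHA5HT 1 or LPS+DHA5HT 4 (highest adjusted p = 0.1). Jun and Atf3 changed by 0.02 (SE 0.06) and −0.13 (SE 0.11).

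Of 32 genes that form or control NF-kB or regulate cytokine transcripts, 4 fell and 1 rose (5 and 1 with the block). Nfkbiz, a nuclear IkB protein that NF-kB needs at a class of cytokine genes including Il12b and Il6, lay at 10.31, 10.54, 10.46 and 10.54 on LPS arrays 1 to 4 and at 9.91, 10.15, 10.08 and 9.83 on LPS+DHA5HT arrays 1 to 4, without overlap (−0.47, SE 0.09, adjusted p = 0.0131). Bcl6, a transcriptional repressor, fell by 0.45 (adjusted p = 0.00186). Zfp36, whose product tristetraprolin destabilises cytokine transcripts, fell by 0.48 (adjusted p = 0.00114), while its relative Zfp36l2 rose by 0.36 (adjusted p = 0.0154). Those 4 calls held in all 8 leave-outs. Rel, the c-Rel subunit of NF-kB, changed by −0.29 (adjusted p = 0.0385), a call lost when any 1 of the 8 arrays was left out (highest adjusted p = 0.12). The inhibitor gene Nfkbia and the deubiquitinase gene Tnfaip3 changed by −0.20 and −0.28 (adjusted p = 0.411 and 0.254). Kdm6b, an LPS-inducible histone demethylase gene, fell from 7.68 ± 0.12 to 6.95 ± 0.21 (SD, n = 4; adjusted p = 0.00088). It stood on a list of 38 macrophage transcription factor and polarization genes, of which 3 fell and 1 rose (5 and 1 with the block).

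The largest decrease of all was that of U90926, annotated as a long non-coding RNA gene. It lay at 7.04, 7.33, 7.07 and 6.26 on LPS arrays 1 to 4 and at 4.21, 4.86, 4.52 and 3.57 on LPS+DHA5HT arrays 1 to 4. No LPS+DHA5HT array came within 1 log2 unit of an LPS array, and the change was −2.63 (SE 0.23, 6.21-fold lower, adjusted p = 8.48e-06). In control cells it lay at 3.10 ± 0.19 (SD, n = 4), below 3.76.

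Next came a cluster of neighbouring genes. Sprr2 genes encode small proline-rich proteins, structural proteins of the cornified envelope of skin and other epithelia. Of 22 genes of the small proline-rich and cornified envelope list 6 fell, all of them Sprr2 genes, and 1 rose. Without LPS+DHA5HT array 1 or array 4 the list had 5 lower, and without both it had 3. Sprr2f lay at 6.67, 7.80, 6.97 and 6.64 on LPS arrays 1 to 4 and at 4.45, 5.54, 4.93 and 4.34 on LPS+DHA5HT arrays 1 to 4, a change of −2.21 (SE 0.24, adjusted p = 9.03e-05). Sprr2e lay at 7.35, 8.50, 7.80 and 7.28 on LPS arrays 1 to 4 and at 5.52, 6.62, 5.90 and 5.10 on LPS+DHA5HT arrays 1 to 4, a change of −1.95 (SE 0.28, adjusted p = 0.00183). Sprr2d lay at 7.99, 8.90, 8.22 and 8.15 on LPS arrays 1 to 4 and at 6.40, 7.46, 6.87 and 6.03 on LPS+DHA5HT arrays 1 to 4, a change of −1.63 (SE 0.23, adjusted p = 0.00158). In each of the 3 genes array 2 was the highest and array 4 the lowest of the LPS+DHA5HT group, array 2 was also the highest of the LPS group, and the groups did not overlap. Sprr2g fell by 1.13 (adjusted p = 0.0142) and Sprr2h by 0.99 (adjusted p = 0.00158). These 5 calls held in all 8 leave-outs. The pseudogene Sprr2j-ps changed by −0.96 (adjusted p = 0.0493) from a dim level, a lower bound, and lost its call without LPS 2, LPS 3, LPS+DHA5HT 1, LPS+DHA5HT 3 or LPS+DHA5HT 4 (highest adjusted p = 0.147). These genes are close relatives, so their probes can share targets and the 6 changes are not independent. S100a4, a calcium-binding protein gene, was the member that rose (0.33, adjusted p = 0.0216), a call lost without LPS 2, LPS 4 or LPS+DHA5HT 4 (highest adjusted p = 0.0807).

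The likeness of these genes extends to the sequence before their start sites, which is shown because the 3 largest changes in the cluster lie side by side on chromosome 3. The lines below give the 250 bases before the start of each gene in the RefSeq promoter table (build GRCm38.p6, plus strand, 5′ to 3′), at chr3:92338890-92339139 for Sprr2d, chr3:92351893-92352142 for Sprr2e and chr3:92364937-92365186 for Sprr2f. Capitals mark the 7 letters TGANTCA, the site form bound by AP-1 factors such as the Fos product, where N is any base and either strand counts.
Sprr2d: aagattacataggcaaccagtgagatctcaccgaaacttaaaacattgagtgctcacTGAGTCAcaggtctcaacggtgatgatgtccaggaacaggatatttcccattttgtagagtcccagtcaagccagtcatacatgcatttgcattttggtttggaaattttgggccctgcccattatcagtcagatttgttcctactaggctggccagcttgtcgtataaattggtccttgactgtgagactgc
Sprr2e: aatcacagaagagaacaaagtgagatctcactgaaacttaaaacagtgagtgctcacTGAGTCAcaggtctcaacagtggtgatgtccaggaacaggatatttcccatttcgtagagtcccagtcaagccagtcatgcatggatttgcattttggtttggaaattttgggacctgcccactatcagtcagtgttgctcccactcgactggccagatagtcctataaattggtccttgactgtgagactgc
Sprr2f: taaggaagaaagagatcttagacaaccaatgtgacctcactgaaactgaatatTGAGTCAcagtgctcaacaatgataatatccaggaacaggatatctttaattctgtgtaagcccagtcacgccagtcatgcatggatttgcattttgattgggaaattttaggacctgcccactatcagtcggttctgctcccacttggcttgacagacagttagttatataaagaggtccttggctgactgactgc
In the 300-base windows from 250 bases before to 50 after the start, Sprr2d and Sprr2e were identical at 89.1% of aligned positions, Sprr2d and Sprr2f at 73.2% and Sprr2e and Sprr2f at 75.8%. Counted from the start site, the AP-1 letters begin at −193 in Sprr2d and Sprr2e and at −197 in Sprr2f. They occur in 7.81% of all 32851 windows of the table, in 14% of the 164 windows of called lower genes and in 8.28% of the 169 windows of called higher genes. For genes called lower with DHA5HT in cells without LPS the share was 13.3% of 98 windows. The windows of called lower genes include the alike ones of Sprr2d, Sprr2e and Sprr2f, so they are not independent. A match is a run of letters and does not show that a factor binds there.

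Of 22 serpin and stefin genes, which encode inhibitors of proteases, 2 fell and 1 rose (3 and 2 with the block), and the median was 0.03. Cstdc4, a cystatin domain gene, lay at 10.67, 11.04, 10.79 and 10.59 on LPS arrays 1 to 4 and at 9.16, 9.45, 9.46 and 8.44 on LPS+DHA5HT arrays 1 to 4, with no overlap and array 4 far below the other LPS+DHA5HT arrays. The change was −1.64 (SE 0.26, adjusted p = 0.00339, and 0.0119 without array 4). Stfa3, a stefin A gene, changed by −1.41 (SE 0.23, adjusted p = 0.00353), and the related Csta3, which was not on the list, by −1.13 (adjusted p = 0.000489). The gene of the list that rose was Serpinb9b, an intracellular serine protease inhibitor, at 5.81, 6.17, 5.74 and 6.18 on LPS arrays 1 to 4 and at 6.98, 7.67, 6.82 and 8.33 on LPS+DHA5HT arrays 1 to 4. Its increase of 1.48 (SE 0.34, adjusted p = 0.0355) was the largest of any gene, without overlap, with array 4 the highest, and the call was lost without LPS 1, LPS 2, LPS 3, LPS 4, LPS+DHA5HT 2 or LPS+DHA5HT 4 (changes from 1.18 to 1.69, highest adjusted p = 0.108). Serpinb2, a plasminogen activator inhibitor, went the other way, at 11.06, 11.42, 11.48 and 10.39 on LPS arrays 1 to 4 and at 10.04, 10.35, 10.33 and 8.20 on LPS+DHA5HT arrays 1 to 4. The groups did not overlap, but the spread was wide, and the change of −1.36 (SE 0.35) had an adjusted p of 0.0614, or 0.027 with the block.

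Type I interferon made by LPS-treated macrophages acts back on them and induces a wide set of antiviral genes. Of 54 genes of that list 7 fell and 0 rose, with a median of −0.14, and 10 fell with the block. Without LPS+DHA5HT array 1 the list had 5 lower, without array 4 it had 8, and without both it had 1. The list's mean level was 8.68, 8.87, 8.80 and 8.93 on LPS arrays and 8.41, 8.67, 8.49 and 8.82 on LPS+DHA5HT arrays, so LPS+DHA5HT array 4 lay within the LPS group, while at each replicate number the LPS+DHA5HT array was the lower. The viral inhibitor gene Rsad2 (viperin) lay at 10.38, 10.79, 10.52 and 10.87 on LPS arrays 1 to 4 and at 9.57, 9.94, 9.78 and 9.42 on LPS+DHA5HT arrays 1 to 4, a change of −0.96 (SE 0.15, adjusted p = 0.00318). Its neighbour Cmpk2, a mitochondrial nucleotide kinase gene, changed by −0.76 (SE 0.11, adjusted p = 0.00158), Oasl1 of the oligoadenylate synthetase family by −0.56 (adjusted p = 0.00643), the schlafen gene Slfn1 by −1.22 (adjusted p = 0.000745) and Daxx, which encodes a transcriptional co-regulator, by −0.36 (adjusted p = 0.0154). None of these 5 calls was lost in a leave-out. Genes of RNA sensors, Ifih1 (MDA5) and Dhx58 (LGP2), changed by −0.42 and −0.47 (adjusted p = 0.0304 and 0.0313). Ifih1 lost its call without LPS 2, LPS 3, LPS 4, LPS+DHA5HT 1 or LPS+DHA5HT 3 and Dhx58 without LPS 1, LPS 2, LPS 3, LPS 4, LPS+DHA5HT 1, LPS+DHA5HT 2 or LPS+DHA5HT 3 (highest adjusted p = 0.091 and 0.0949). The interferon regulatory factor gene Irf7, the ubiquitin-like Isg15 and Ifit1 were not called (−0.18, −0.31 and −0.32, adjusted p = 0.717, 0.396 and 0.293). Ifnb1, which encodes interferon beta, was below 3.76 in both groups.

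Among 9 guanylate-binding proteins and immunity-related GTPases, which attack the compartments of intracellular pathogens, 2 fell. Gbp5 lay at 7.02, 7.23, 7.79 and 7.64 on LPS arrays 1 to 4 and at 6.18, 6.47, 6.80 and 5.65 on LPS+DHA5HT arrays 1 to 4, a change of −1.14 (SE 0.21, adjusted p = 0.00858) without overlap. Gbp3 changed by −0.35 (adjusted p = 0.0296), a call lost without LPS 2, LPS 3, LPS 4, LPS+DHA5HT 1, LPS+DHA5HT 3 or LPS+DHA5HT 4 (highest adjusted p = 0.0926). Gbp7 changed by −0.34 and was called with the block (adjusted p = 0.0271). The core letters of the interferon-stimulated response element, GAAANNGAA on either strand, stood in 8.54% of the windows of called lower genes and in 8.56% of all windows. The matches that lie before the start site of a called gene of these 2 lists are shown with 20 bases on each side and the letters in capitals, from RefSeq (GRCm38.p6): Gbp5 (chr3:142496750-142496798, minus strand), Rsad2 (chr12:26456543-26456591, plus strand), Ifih1 (chr2:62646339-62646387, plus strand) and Gbp3, where 2 matches overlap (chr3:142559986-142560034, minus strand and chr3:142559980-142560028, minus strand). Ifih1 holds another match after its start site, which is not shown. Dhx58 has no entry in the promoter table, so it was not searched.
Gbp5: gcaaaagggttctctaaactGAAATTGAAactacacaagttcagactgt
Rsad2: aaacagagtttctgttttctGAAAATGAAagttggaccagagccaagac
Ifih1: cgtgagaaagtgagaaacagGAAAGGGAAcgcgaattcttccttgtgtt
Gbp3: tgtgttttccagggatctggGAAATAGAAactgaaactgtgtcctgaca
Gbp3: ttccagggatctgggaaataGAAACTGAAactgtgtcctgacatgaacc

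Of 21 genes of nitric oxide, arginine and itaconate metabolism 4 fell and 0 rose, with a median of −0.05. With the block 5 fell, and 3 fell without LPS+DHA5HT array 1 or array 4. Nos2, the inducible nitric oxide synthase, lay at 9.25, 9.76, 9.73 and 9.89 on LPS arrays 1 to 4 and at 8.20, 8.90, 8.86 and 8.57 on LPS+DHA5HT arrays 1 to 4. The groups did not overlap, and the change was −1.02 (SE 0.25, adjusted p = 0.0485). The call was lost without LPS 2, LPS 3, LPS 4, LPS+DHA5HT 1, LPS+DHA5HT 2, LPS+DHA5HT 3 or LPS+DHA5HT 4 (highest adjusted p = 0.133), while with the block the adjusted p was 0.00198. Slc7a2, a transporter of its substrate arginine, fell by 0.83 (SE 0.14, adjusted p = 0.00637), and Odc1, which makes polyamines from ornithine, by 0.46 (adjusted p = 0.00347). Kynu, the kynureninase of tryptophan breakdown, lay at 7.82, 7.66, 8.17 and 8.12 on LPS arrays 1 to 4 and at 6.99, 7.06, 7.26 and 5.83 on LPS+DHA5HT arrays 1 to 4, a change of −1.16 (adjusted p = 0.0107) in which array 4 was lowest by more than 1 log2 unit. It remained called without that array (adjusted p = 0.00149). Acod1, the itaconate-producing enzyme gene, was at 12.77 ± 0.01 and 12.71 ± 0.07 (SD, n = 4), a change of −0.05 (SE 0.22). That SE draws on all 16 arrays and is larger than the SD of either of these groups.

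Inhba, the activin A subunit gene, lay at 9.33, 10.18, 9.20 and 9.59 on LPS arrays 1 to 4 and at 7.71, 8.74, 7.78 and 7.80 on LPS+DHA5HT arrays 1 to 4. Array 2 was the highest in both groups, the groups did not overlap, and the change was −1.56 (SE 0.22, 2.96-fold lower, adjusted p = 0.00158). It was the 1 called gene of 35 in the activin, TGF-beta and BMP list (5 with the block), and the cytokine gene Tgfb1 changed by −0.02 (SE 0.05). Mmp13, a collagenase gene, lay at 8.91, 9.64, 9.14 and 8.45 on LPS arrays 1 to 4 and at 7.38, 8.00, 7.72 and 6.98 on LPS+DHA5HT arrays 1 to 4, a change of −1.52 (SE 0.21, adjusted p = 0.00133). Mmp25, a membrane-anchored metalloprotease gene, fell by 0.65 (adjusted p = 0.00351), and Thbs1, which encodes the matrix protein thrombospondin 1, by 0.54 (adjusted p = 0.0202, lost without LPS 2, LPS+DHA5HT 1 or LPS+DHA5HT 4, highest adjusted p = 0.0732). These were 3 of 39 matrix genes, with 0 higher (4 lower and 1 higher with the block). Mmp9 and Mmp12 changed by 0.12 (SE 0.16) and −0.14 (SE 0.08).

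Of 40 co-stimulation and adhesion genes 4 fell and 0 rose, and 8 fell with the block. Cd80, a ligand of CD28 on T cells, lay at 9.92, 10.16, 9.65 and 9.88 on LPS arrays 1 to 4 and at 9.29, 9.40, 9.33 and 9.04 on LPS+DHA5HT arrays 1 to 4, a change of −0.64 (SE 0.13, adjusted p = 0.0234) without overlap. A dimmer probe set of the gene gave −0.70. Cd86, the other ligand, changed by −0.33 (adjusted p = 0.0178), Slamf7 by −0.70 (adjusted p = 0.0237) and the integrin gene Itgal by −0.44 (adjusted p = 0.0252). Cd80 lost its call without LPS 1, LPS 2, LPS 4, LPS+DHA5HT 1 or LPS+DHA5HT 4, Cd86 without LPS 2 or LPS+DHA5HT 4, Slamf7 without LPS 2, LPS+DHA5HT 1 or LPS+DHA5HT 3 and Itgal without LPS 3, LPS 4, LPS+DHA5HT 1 or LPS+DHA5HT 4 (highest adjusted p = 0.0821, 0.0673, 0.0777 and 0.0791). Cd274, which encodes the PD-1 ligand PD-L1, changed by −0.38 and was called with the block (adjusted p = 0.0339). Of 55 scavenger, lectin and TREM-family receptor genes 3 rose and 2 fell, with a median of 0.01, and with the block 3 rose and 6 fell. Marco, a receptor for bacterial surfaces, lay at 11.32, 11.34, 11.48 and 11.13 on LPS arrays 1 to 4 and at 10.40, 10.65, 10.83 and 9.54 on LPS+DHA5HT arrays 1 to 4, a change of −0.96 (SE 0.20, adjusted p = 0.0214) lost without LPS 2 or LPS 3 (highest adjusted p = 0.0627). Siglec1, a sialic acid receptor gene, changed by −0.72 (adjusted p = 0.0372), with overlapping groups and a call lost without LPS 2, LPS 3, LPS 4, LPS+DHA5HT 1, LPS+DHA5HT 3 or LPS+DHA5HT 4 (highest adjusted p = 0.118). Abca1, the cholesterol exporter gene, lay at 8.25, 8.43, 8.54 and 8.29 on LPS arrays 1 to 4 and at 7.65, 7.77, 7.89 and 7.28 on LPS+DHA5HT arrays 1 to 4, without overlap (−0.73, SE 0.12, adjusted p = 0.00379). It was the 1 gene that fell among 20 of cholesterol efflux, of which 1 rose (2 with the block). Its relative Abcg1 changed by 0.16 (SE 0.07, adjusted p = 0.298).

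Several of the other large decreases were of genes best known from other tissues. Csn1s1, a milk casein gene, lay at 5.02, 5.33, 4.71 and 5.35 on LPS arrays 1 to 4 and at 3.19, 3.56, 3.92 and 3.52 on LPS+DHA5HT arrays 1 to 4, and since its LPS+DHA5HT mean was below 3.76 its change of −1.56 (adjusted p = 2.50e-05) is a lower bound. Tnnt2, the cardiac troponin T gene, lay at 8.12, 7.81, 7.73 and 8.06 on LPS arrays 1 to 4 and at 6.67, 6.57, 6.59 and 6.24 on LPS+DHA5HT arrays 1 to 4. Its arrays were tightly grouped, and the change was −1.42 (SE 0.12, adjusted p = 8.48e-06). The keratin gene Krt23 changed by −1.41 (adjusted p = 8.05e-05), the acid phosphatase gene Acpp by −1.35 (adjusted p = 0.000151), the tenascin gene Tnn by −1.34 (adjusted p = 0.000512), Heatr9 by −1.10 (adjusted p = 0.00186), the myeloid receptor gene Cd300e by −1.12 (adjusted p = 0.0106) and the non-coding AI504432 by −1.04 (adjusted p = 8.48e-06). Pecam1 fell by 0.82 (SE 0.10, adjusted p = 0.000192), while the other endothelial markers Cdh5, Kdr and Tek changed by 0.05, 0.06 and −0.05 and were not called. In each of these 9 called genes the groups did not overlap and the call held in all 8 leave-outs. Edn1, which encodes the vasoconstrictor endothelin 1, lay at 9.01, 9.05, 8.91 and 8.85 on LPS arrays 1 to 4 and at 7.85, 8.04, 8.02 and 6.93 on LPS+DHA5HT arrays 1 to 4, a change of −1.25 (SE 0.25, adjusted p = 0.0178) that lost its call without LPS 2 (adjusted p = 0.0577).

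Higher with DHA5HT were genes of glutathione and NADPH metabolism, many of which are known targets of the oxidant-sensing factor NRF2. Of 38 glutathione genes 8 rose and 0 fell (10 and 0 with the block), with a median of 0.09. Of 45 thioredoxin, NADPH and quinone genes 10 rose and 0 fell (14 and 0 with the block), with a median of 0.20. The mean level of the glutathione list was 7.59, 7.67, 7.62 and 7.63 on LPS arrays and 7.75, 7.85, 7.73 and 7.83 on LPS+DHA5HT arrays. That of the other list was 8.86, 8.90, 8.90 and 8.91 and 9.03, 9.11, 9.02 and 9.22. Neither overlapped. Without LPS+DHA5HT array 1 the lists had 5 and 8 genes higher, without array 4 they had 5 and 4, and without both they had 2 and 1.

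Gclm, the modifier subunit of glutamate-cysteine ligase, which catalyses the first step of glutathione synthesis, lay at 10.13, 10.37, 10.20 and 10.14 on LPS arrays 1 to 4 and at 10.76, 11.02, 10.77 and 11.51 on LPS+DHA5HT arrays 1 to 4. All LPS+DHA5HT arrays were higher, array 4 most, and the change was 0.81 (SE 0.13, 1.75-fold higher, adjusted p = 0.00484). Gclc, the catalytic subunit, rose by 0.29 (SE 0.07, adjusted p = 0.0466). The glutathione transferase gene Gsta3 lay at 4.90, 5.59, 5.38 and 5.15 on LPS arrays 1 to 4 and at 6.09, 6.41, 6.39 and 6.24 on LPS+DHA5HT arrays 1 to 4, a change of 1.03 (SE 0.16, 2.04-fold higher, adjusted p = 0.00232). The membrane-bound transferase gene Mgst1 rose by 0.81 (adjusted p = 0.0154), Gstm1 by 0.53 (adjusted p = 0.00597), Gstm3 by 0.49 (adjusted p = 0.0132) and Gsto1 by 0.50 (adjusted p = 0.0418). A second, dimmer probe set of Gstm3 gave −0.01. Gsr, which regenerates glutathione, rose by 0.27 (adjusted p = 0.0355). Calls of Gclm, Gsta3, Mgst1, Gstm1 and Gstm3 held in all 8 leave-outs. Gclc lost its call without LPS 1, LPS 2, LPS 3, LPS 4, LPS+DHA5HT 1, LPS+DHA5HT 2 or LPS+DHA5HT 4, Gsto1 without LPS 1, LPS 2, LPS 3, LPS 4, LPS+DHA5HT 1, LPS+DHA5HT 2 or LPS+DHA5HT 4 and Gsr without LPS 1, LPS 2, LPS 4, LPS+DHA5HT 1, LPS+DHA5HT 2, LPS+DHA5HT 3 or LPS+DHA5HT 4 (highest adjusted p = 0.144, 0.117 and 0.116).

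NADPH is made by Pgd of the pentose phosphate pathway and by malic enzyme, Me1. Taldo1 belongs to the same pathway as Pgd but does not itself make NADPH. Pgd lay at 11.10, 11.06, 11.25 and 11.20 on LPS arrays 1 to 4 and at 11.45, 11.47, 11.59 and 11.65 on LPS+DHA5HT arrays 1 to 4, a change of 0.39 (SE 0.06, adjusted p = 0.00347) without overlap. Taldo1 rose by 0.46 (adjusted p = 0.00662) and Me1 by 0.38 (adjusted p = 0.0412), while the transketolase gene Tkt changed by 0.09 (SE 0.05, adjusted p = 0.496). Ptgr1 and Akr1b8, reductases of reactive lipid products, rose by 0.46 and 0.34 (adjusted p = 0.00577 and 0.0101). The calls of Pgd, Taldo1, Ptgr1 and Akr1b8 held in all 8 leave-outs. The sulfiredoxin gene Srxn1 rose by 0.67 (adjusted p = 0.0412), the peroxiredoxin gene Prdx1 by 0.34 (adjusted p = 0.0337), the thioredoxin reductase gene Txnrd1 by 0.26 (adjusted p = 0.0355) and catalase, Cat, by 0.43 (adjusted p = 0.0296). Nqo1, the quinone reductase gene, rose by 0.51 (adjusted p = 0.0412) from a mean below 3.76 and with overlapping groups. Me1 lost its call without LPS 1, LPS 2, LPS 3, LPS 4, LPS+DHA5HT 1, LPS+DHA5HT 2 or LPS+DHA5HT 4, Srxn1 without LPS 1, LPS 2, LPS 3, LPS 4, LPS+DHA5HT 2 or LPS+DHA5HT 4, Prdx1 without LPS 1, LPS 2, LPS 3, LPS+DHA5HT 2 or LPS+DHA5HT 4, Txnrd1 without LPS 1, LPS 2, LPS 3, LPS 4, LPS+DHA5HT 2, LPS+DHA5HT 3 or LPS+DHA5HT 4, Cat without LPS 1, LPS 3, LPS 4, LPS+DHA5HT 2 or LPS+DHA5HT 4 and Nqo1 without LPS 1, LPS 2, LPS 3, LPS+DHA5HT 1, LPS+DHA5HT 3 or LPS+DHA5HT 4 (highest adjusted p = 0.122, 0.102, 0.111, 0.0993, 0.0918 and 0.132). Other genes of this group did not pass the test. Hmox1, the heme oxygenase gene, changed by 0.20 (SE 0.14, adjusted p = 0.584), the cystine transporter gene Slc7a11 by 0.17 (SE 0.24) and Nfe2l2, which encodes NRF2, by 0.18 (SE 0.05, adjusted p = 0.083).

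NRF2 binds the antioxidant response element, whose core letters TGACNNNGC were searched on both strands of the 300-base windows. They stood in 8 of 22 windows (36.4%) of the glutathione and antioxidant genes called higher, in 13.2% of 76 windows of the genes of these lists that were not called, and in 12.4% of all windows. Over all called genes the shares were 16% of the 169 windows of higher genes and 15.2% of the 164 windows of lower genes. A gene can have several windows, and the lists were written with NRF2 targets in mind, so these shares are a description. The 22 windows belong to 16 genes, since Gclc and Gsr, also called higher, have no entry in the promoter table. The sites upstream of 5 of these genes are shown to let the letters be compared, with the core in capitals and 20 bases on each side, from RefSeq (GRCm38.p6): Gclm (chr3:122245403-122245451, minus strand), Gsta3 (chr1:21240444-21240492, plus strand), Mgst1 (chr6:138140451-138140499, minus strand), Prdx1 (chr4:116685446-116685494, minus strand) and Txnrd1 (chr10:82859094-82859142, minus strand).
Gclm: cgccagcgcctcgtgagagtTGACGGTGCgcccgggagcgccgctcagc
Gsta3: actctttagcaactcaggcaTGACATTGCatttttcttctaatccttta
Mgst1: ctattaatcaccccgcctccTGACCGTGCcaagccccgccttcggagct
Prdx1: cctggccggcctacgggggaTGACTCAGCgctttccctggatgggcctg
Txnrd1: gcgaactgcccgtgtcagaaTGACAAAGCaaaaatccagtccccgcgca
In Prdx1 the core letters also contain a match to the AP-1 form TGANTCA. The windows of Me1, Pgd and Srxn1 hold the core as well, at or after the start site.

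Of 40 genes of DNA replication and S phase 7 rose and 0 fell, the median was 0.22, and 37 of the 40 changes were above 0. With the block 16 rose. The mean level of the list was 8.69, 8.39, 8.53 and 8.46 on LPS arrays 1 to 4 and 8.95, 8.64, 8.78 and 8.58 on LPS+DHA5HT arrays 1 to 4. The groups overlapped, but at each replicate number the LPS+DHA5HT array was the higher. Without LPS+DHA5HT array 1 the list had 2 calls, without array 4 it had 4, and without both it had 0. Ccne1, the cyclin E1 gene that drives entry into S phase, lay at 9.13, 8.71, 8.97 and 8.69 on LPS arrays 1 to 4 and at 9.55, 9.28, 9.34 and 9.40 on LPS+DHA5HT arrays 1 to 4, without overlap (0.52, SE 0.09, adjusted p = 0.00637). Clspn, the replication checkpoint mediator claspin, rose by 0.48 (adjusted p = 0.0125). Fen1, the flap endonuclease, rose by 0.47 (0.25 in a second, dimmer probe set), the origin licensing factor Cdc6 by 0.45, the histone chaperone subunit Chaf1b by 0.34, E2f2 by 0.32 and Pcna, the sliding clamp of DNA polymerase, by 0.23 (adjusted p = 0.0196, 0.0267, 0.0337, 0.0499 and 0.0332). Ccne1 and Clspn held their calls in all 8 leave-outs. Fen1 lost its call without LPS 2, LPS 4 or LPS+DHA5HT 1, Cdc6 without LPS 2, LPS 3, LPS 4, LPS+DHA5HT 1, LPS+DHA5HT 3 or LPS+DHA5HT 4, Chaf1b without LPS 2, LPS 3, LPS 4, LPS+DHA5HT 1 or LPS+DHA5HT 2, E2f2 without LPS 1, LPS 2, LPS 3, LPS 4, LPS+DHA5HT 1, LPS+DHA5HT 3 or LPS+DHA5HT 4 and Pcna without LPS 2, LPS 3, LPS 4, LPS+DHA5HT 1, LPS+DHA5HT 3 or LPS+DHA5HT 4 (highest adjusted p = 0.0721, 0.091, 0.0977, 0.152 and 0.0975).

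Replication genes outside the list were among the 30 largest increases. Wdhd1, a replication fork factor, rose by 0.59 (adjusted p = 0.0046) and Ung, the uracil DNA glycosylase gene, by 0.54 (adjusted p = 0.00762), and both calls held in all 8 leave-outs. E2f8, an E2F family factor gene, rose by 0.59 and Dscc1, a clamp loader subunit, by 0.57 (adjusted p = 0.0438 and 0.0385), calls lost without LPS 2, LPS 3, LPS 4, LPS+DHA5HT 1, LPS+DHA5HT 2, LPS+DHA5HT 3 or LPS+DHA5HT 4 for E2f8 and LPS 2, LPS 4, LPS+DHA5HT 1 or LPS+DHA5HT 4 for Dscc1 (highest adjusted p = 0.123 and 0.121). Of 36 mitosis genes 0 were called, the median was −0.08, and Mki67, Cdk1 and Plk1 changed by 0.01 (SE 0.13), 0.01 (SE 0.13) and −0.15 (SE 0.15). The mean level of the mitosis list was 8.86, 8.33, 8.75 and 8.05 on LPS+DHA5HT arrays 1 to 4 and 8.73, 8.45, 8.63 and 8.60 on LPS arrays 1 to 4, so array 4 was the lowest of the 8. Among 26 cell cycle inhibitors and p53 targets 3 fell (3 with the block, when 1 rose), Bbc3, the pro-apoptotic PUMA gene (−0.55, adjusted p = 0.00195), Btg2 and Cdkn1b, the p27 gene (−0.26, adjusted p = 0.0477, lost when any 1 of the 8 arrays was left out, highest adjusted p = 0.139, and −0.07 in a dimmer probe set). The p21 gene Cdkn1a changed by −0.14 (SE 0.08). In the BCL2 family Bcl2 fell by 0.40 (adjusted p = 0.0202, lost without LPS 2, LPS 4, LPS+DHA5HT 1 or LPS+DHA5HT 4, highest adjusted p = 0.0654, and −0.14 in a probe set below 3.76) and Bid rose by 0.43 (adjusted p = 0.00727).

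On the list of scavenger, lectin and TREM-family receptors the larger increases were of 2 TREM genes. Treml4, a TREM-like receptor gene, lay at 5.54, 5.37, 5.72 and 5.44 on LPS arrays 1 to 4 and at 6.34, 6.52, 6.30 and 7.11 on LPS+DHA5HT arrays 1 to 4, without overlap, a change of 1.05 (SE 0.15, 2.07-fold higher, adjusted p = 0.0015). Trem2, a receptor for lipids that promotes phagocytosis, lay at 9.48, 9.66, 9.56 and 9.59 on LPS arrays 1 to 4 and at 10.01, 10.07, 9.96 and 10.52 on LPS+DHA5HT arrays 1 to 4, a change of 0.57 (SE 0.10, adjusted p = 0.00823). Array 4 was the highest in both genes, and both calls held without it (adjusted p = 0.00104 and 0.00891). Nrp1, the neuropilin 1 receptor gene, rose by 0.57 (adjusted p = 0.000512), Creg1, a lysosomal glycoprotein gene, by 0.53 (adjusted p = 0.00918), the actin regulator gene Eps8 by 0.52 (adjusted p = 0.00189) and Rasgrp3, an activator of Ras proteins, by 0.52 (adjusted p = 8.31e-05). The last was among the tightest changes of all, from 6.19, 6.24, 6.27 and 6.18 to 6.74, 6.73, 6.80 and 6.69. These 4 calls held in all 8 leave-outs.

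Cd1d1, which presents lipid antigens to NKT cells, lay at 4.41, 4.49, 4.33 and 4.30 on LPS arrays 1 to 4 and at 4.89, 5.17, 4.74 and 5.86 on LPS+DHA5HT arrays 1 to 4, a change of 0.78 (SE 0.16, adjusted p = 0.0208) lost without LPS 3 or LPS 4 (highest adjusted p = 0.0624). Slc40a1, the iron exporter ferroportin, lay at 7.05, 7.48, 7.10 and 7.41 on LPS arrays 1 to 4 and at 7.75, 7.83, 7.72 and 8.81 on LPS+DHA5HT arrays 1 to 4, a change of 0.77 (SE 0.19, adjusted p = 0.0499) in which array 4 stood about 1 log2 unit above the other 3. The call was lost without LPS 1, LPS 2, LPS 3, LPS 4, LPS+DHA5HT 1, LPS+DHA5HT 2 or LPS+DHA5HT 4 (highest adjusted p = 0.126). Gbe1, the glycogen branching enzyme gene, rose by 0.56 (adjusted p = 0.0169, lost without LPS+DHA5HT 4, adjusted p = 0.0579), and Arntl, the circadian clock factor BMAL1, by 0.32 (SE 0.05, adjusted p = 0.00604). Of 51 lysosome and autophagy genes 2 rose and 0 fell (2 and 2 with the block), with a median of 0.05. They were the acid lipase gene Lipa (0.32, adjusted p = 0.0381) and the transcription factor gene Tfec (0.46, adjusted p = 0.0313). Lipa lost its call without LPS 1, LPS 2, LPS 3, LPS 4, LPS+DHA5HT 2 or LPS+DHA5HT 4 and Tfec without LPS 1, LPS 2, LPS 4, LPS+DHA5HT 1, LPS+DHA5HT 2 or LPS+DHA5HT 4 (highest adjusted p = 0.103 and 0.106).

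Other increases among the 30 largest were of Ak8, an adenylate kinase gene (0.80, adjusted p = 0.0216), the organic cation transporter gene Slc22a18 (0.69, adjusted p = 0.0381), Mfsd6 (0.62, adjusted p = 0.0223), the G protein regulator gene Rgs18 (0.61, adjusted p = 0.0359), Spsb4 (0.53, adjusted p = 0.0154), the stearoyl-CoA desaturase gene Scd4 (0.50, adjusted p = 0.0355), the uronyl sulfotransferase gene Ust (0.49, adjusted p = 0.00686) and Rtl8c (0.49, adjusted p = 0.0359). The call of Ust held in all 8 leave-outs. Ak8 lost its call without LPS 1, LPS 4 or LPS+DHA5HT 4, Mfsd6 without LPS 1 or LPS 3 and Spsb4 without LPS 2 or LPS+DHA5HT 4 (highest adjusted p = 0.0745, 0.0682 and 0.0602), and Slc22a18, Rgs18, Scd4 and Rtl8c each lost theirs without any 1 of 6 arrays (highest adjusted p = 0.109, 0.0939, 0.11 and 0.112).

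Single members of further lists passed the test. Lower were the complement factor B gene Cfb (−0.70, adjusted p = 0.0385, overlapping groups), the MAP kinase phosphatase gene Dusp10 (−0.37, adjusted p = 0.0355), the class II chaperone gene H2-Oa (−0.45, adjusted p = 0.0278), Hivep3 (−0.52, adjusted p = 0.0451, while a dimmer probe set gave 0.13), the collagen prolyl hydroxylase gene P4ha2 (−0.44, adjusted p = 0.0267) and the tyrosine kinase gene Src (−0.42, adjusted p = 0.0277). Higher were the pyruvate carboxylase gene Pcx (0.34, adjusted p = 0.0332) and the myeloid lectin gene Clec5a (0.28, adjusted p = 0.0311). None of these 8 calls held in all leave-outs: H2-Oa lost its call without LPS 2, LPS 4, LPS+DHA5HT 1 or LPS+DHA5HT 4, P4ha2 without LPS 2, LPS 4, LPS+DHA5HT 1, LPS+DHA5HT 3 or LPS+DHA5HT 4, Cfb without LPS 2, LPS 3, LPS 4, LPS+DHA5HT 1, LPS+DHA5HT 3 or LPS+DHA5HT 4, Src without LPS 2, LPS 3, LPS 4, LPS+DHA5HT 1, LPS+DHA5HT 2 or LPS+DHA5HT 4, and Dusp10, Hivep3, Pcx and Clec5a without any 1 of 7 arrays (highest adjusted p = 0.091, 0.0862, 0.122, 0.0938, 0.0966, 0.143, 0.0872 and 0.0879). Of 16 MAP kinase phosphatase genes 4 were lower with the block, and of 40 glycolysis and hypoxia genes 5. On the list of 30 acute-phase, complement and iron genes, which holds Cfb and Slc40a1, 3 were lower and 2 higher with the block, and on the list of 24 MHC genes, which holds H2-Oa and Cd1d1, 2 were lower and 1 higher. Of 21 osteoclast genes, which include Src, 2 were lower and 1 higher, and of 16 circadian clock genes, which include Arntl, 1 was lower and 1 higher.

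Few genes were called on lists of lipid pathways that could bear on a fatty acid amide. Over all genes 1.79% were called, and 3.44% with the block. On lists of 20 to 34 genes, 0 or 1 call is near that share and 2 calls are above it. Of 34 endocannabinoid, serotonin and fatty acid amide genes 1 was called, Daglb, a diacylglycerol lipase that makes the endocannabinoid 2-arachidonoylglycerol (0.35, adjusted p = 0.0237, lost without LPS 2, LPS+DHA5HT 1 or LPS+DHA5HT 3, highest adjusted p = 0.0836). The fatty acid amide hydrolase gene Faah was dim and changed by −0.22 (SE 0.10), the cannabinoid receptor gene Cnr2 by 0.13 (SE 0.12), and Trpv1 and Htr2b were below 3.76 in both groups. Of 25 PPAR receptors and targets 0 were called, with changes of 0.15 for Angptl4 and −0.15 for Plin2. Of 27 prostaglandin and leukotriene genes 2 rose and 0 fell (4 and 0 with the block), the thromboxane synthase gene Tbxas1 (0.47, adjusted p = 0.0356) and Alox5ap, which serves leukotriene synthesis (0.27, adjusted p = 0.0419). Tbxas1 lost its call without LPS 1, LPS 4, LPS+DHA5HT 1, LPS+DHA5HT 2 or LPS+DHA5HT 4 and Alox5ap without LPS 1, LPS 2, LPS 3, LPS 4, LPS+DHA5HT 1, LPS+DHA5HT 2 or LPS+DHA5HT 4 (highest adjusted p = 0.109 and 0.113). Ptgs2, the cyclooxygenase 2 gene, changed by −0.15 (SE 0.16). The cholesterol synthesis list had 1 gene lower of 20, Tm7sf2 (−0.34, adjusted p = 0.0485), and the fatty acid synthesis list had Dgat2, which makes triglycerides, lower (−0.79, adjusted p = 0.0332) and Me1 higher among 27 (2 lower and 1 higher with the block). Tm7sf2 lost its call without LPS 1, LPS 2, LPS 3, LPS 4, LPS+DHA5HT 2, LPS+DHA5HT 3 or LPS+DHA5HT 4 and Dgat2 without LPS 1, LPS 2, LPS 3, LPS 4 or LPS+DHA5HT 1 (highest adjusted p = 0.147 and 0.0785).

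**Figure D3:**
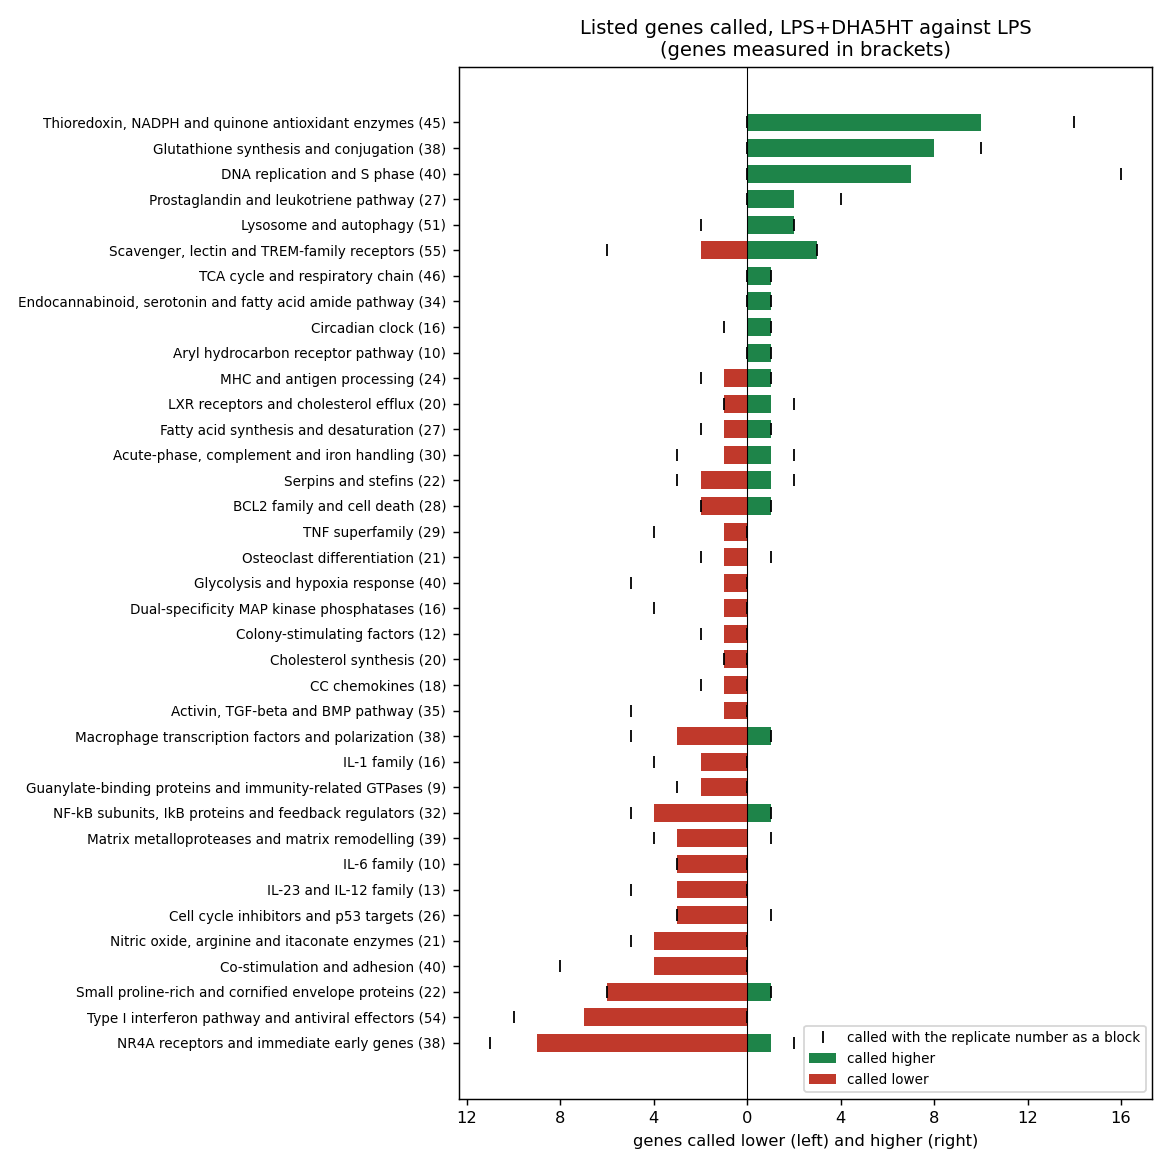
Genes called lower (red, left) and higher (green, right) in LPS+DHA5HT against LPS arrays for the gene lists with at least 1 call, with the number of genes measured in brackets. Black ticks give the counts with the replicate number as a block. The antioxidant and glutathione lists reach 10 and 8 genes higher, and the NR4A and immediate early list has 9 lower.

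Many genes that LPS turns on strongly were not called. The acute phase gene Saa3 lay at 11.88, 12.01, 11.97 and 11.89 on LPS arrays 1 to 4 and at 11.42, 11.82, 11.54 and 11.15 on LPS+DHA5HT arrays 1 to 4. The groups did not overlap, but the change of −0.45 (SE 0.14) had an adjusted p of 0.138. Lcn2, which encodes a siderophore-binding protein, changed by −0.00 (SE 0.25), the orphan receptor gene Gpr84 by 0.04 (SE 0.06), the lectin receptor gene Clec4e by −0.05 (SE 0.06) and the neutrophil attractant gene Cxcl2 by −0.35 (SE 0.16, adjusted p = 0.344). Nlrp3, Tlr4 and Cd14 changed by −0.11 (SE 0.08), 0.24 (SE 0.11) and −0.08 (SE 0.06). Lists without a call by limma in the main test were those of IL-17, type 2 cytokines, CXC chemokines, chemokine receptors, inflammasomes, Toll-like receptors, SOCS, JAK and STAT genes, PPAR targets, mitosis, the unfolded protein response, heat shock, histones and housekeeping genes. With the block 8 of these 13 lists had 1 or 2 calls. The 50 lists held 1263 measured genes, of which 42 were called higher and 68 lower, so most of the 337 called genes lay outside them.

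The share of genes called depended on how bright a gene was. With the genes ranked by mean level and cut into 4 equal groups, 0.213% of the dimmest group were called, 0.914% of the second, 3.55% of the third and 2.49% of the brightest. Increases outnumbered decreases in the brightest group (72 against 45), and decreases outnumbered increases in the third (101 against 66).

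In cells without LPS 113 genes were called between the same dose of DHA5HT and control (0.6% of all), 90 of them lower (0.478%) and 23 higher. That comparison shares no array with the one in LPS-treated cells. The 2 sets had 13 genes in common, of which 10 were lower in both and 3 higher in both. These were 3.86% of the 337, where 0.6% of all genes were called without LPS. They were 11.5% of the 113, where 1.79% of all genes were called with LPS. The 10 included Rsad2 (−0.96 with LPS, −1.62 without), Cmpk2 (−0.76 and −1.71), Oasl1 (−0.56 and −1.14), Dhx58 (−0.47 and −1.70), Ifih1 (−0.42 and −0.91), Gbp3 (−0.35 and −0.79) and Daxx (−0.36 and −0.57). On the interferon list 34 of 54 genes were lower, with a median of −0.71 without LPS, beside 7 lower and a median of −0.14 with LPS. The interferon-stimulated letters GAAANNGAA stood in 28.6% of the windows of genes lower without LPS. Rasgrp3 was higher in both (0.52 and 0.34).

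**Figure D4:**
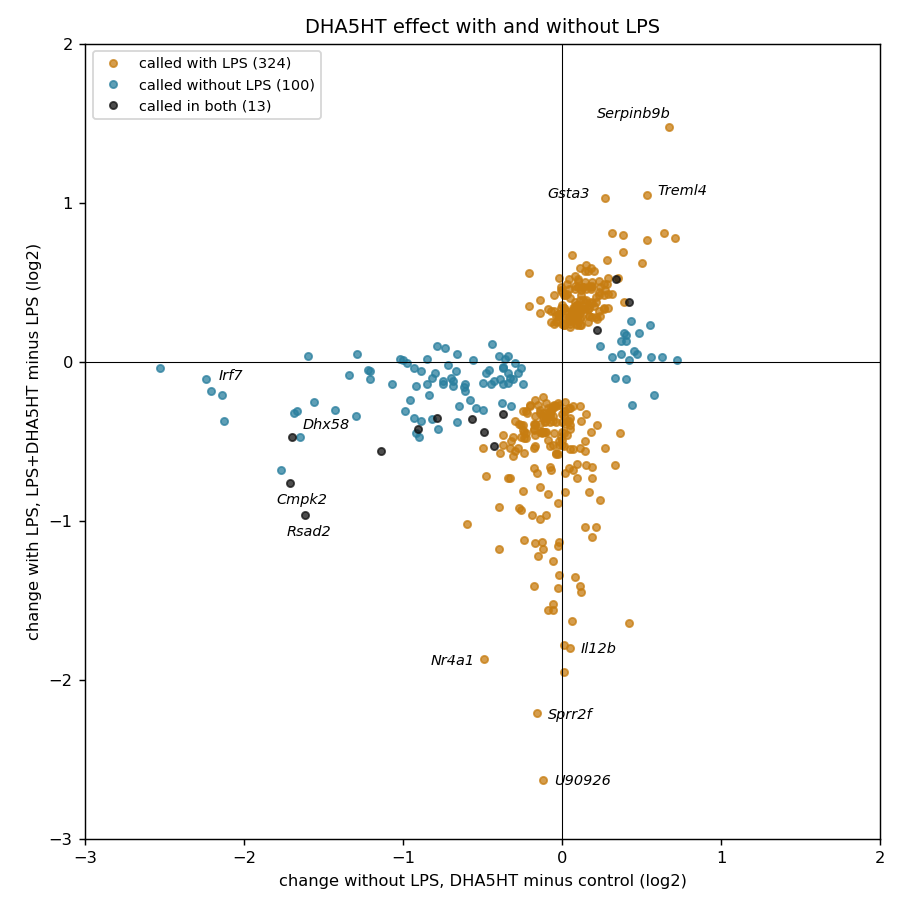
Change with DHA5HT in LPS-treated cells (LPS+DHA5HT minus LPS, log2, vertical axis) against the change without LPS (DHA5HT minus control, log2, horizontal axis) for genes called in at least 1 of the 2 comparisons. The 324 genes called only with LPS spread along the vertical axis and the 100 called only without it along the horizontal axis, as follows from how they were chosen. A call in only 1 comparison does not show that the effects differ. Both comparisons called 13 genes.

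The difference between the effects was tested directly as the interaction in the same limma model. It was called for 62 genes (0.329%), 31 with the more positive change in LPS-treated cells and 31 with the more negative. Of the 62, 32 were called in LPS-treated cells, 29 of them lower and 3 higher, and 29 others were called only without LPS. Il12b changed by −1.80 with LPS and 0.05 without (difference −1.85, SE 0.26, adjusted p = 0.00228), and Il23a by −1.18 and −0.12 (adjusted p = 0.00542). U90926, Nr4a3, Sprr2d, Sprr2e, Sprr2f, Cstdc4, Csta3, Mmp13, Mmp25, Tnnt2, Krt23, Tnn and Abca1 were among the others that were lower with LPS and differed. For Nr4a1 the difference was −1.38 (SE 0.31, adjusted p = 0.0745), for Il6 −0.58 (adjusted p = 0.152), for Gclm 0.49 (adjusted p = 0.531) and for Gsta3 0.76 (adjusted p = 0.257), so a difference was not shown for them. Room for a decrease in cells without LPS was limited for part of the 29 genes lower with LPS. The 29 include Cmpk2 and Dhx58, which fell more without LPS, so the question does not apply to them. Of the 29, 16 had a control mean above 3.76 by less than the size of their decrease with LPS, or below it. For these 16 a decrease of the same size would have ended below that level, where it may not be measured in full. They included Il12b, whose control mean of 4.30 was 0.54 above that level, Il23a (4.70, 0.94 above), Cstdc4, U90926, Nr4a3, Sprr2d, Sprr2e, Sprr2f, Csta3, Krt23 and Tnn. Mmp13, Mmp25, Tnnt2 and Abca1 lay above 3.76 by more than the size of their decrease. That level is a median of markers whose means ran from 2.77 to 5.35, so it is approximate and not a floor. The range also holds the control mean of Mmp25 (4.77). Il6 lay below 3.76 in control cells as well. In the opposite direction Irf7 changed by −0.18 with LPS and −2.21 without (difference 2.03, SE 0.24, adjusted p = 0.000884), and Isg15, Ifit1, Gbp7, Dhx58 and Cmpk2 differed likewise (adjusted p from 0.000884 to 0.00727). Gbe1 and Arntl were higher with LPS and differed from their change without it (−0.21 and −0.07, adjusted p = 0.0434 and 0.0349).

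How much single arrays decided the calls was measured by leaving each out. Between 143 genes (without LPS array 2) and 289 (without LPS+DHA5HT array 3) were then called, against 337. The counts were 222, 223 and 177 without LPS array 1, 3 or 4 and 180, 263 and 154 without LPS+DHA5HT array 1, 2 or 4. Without LPS+DHA5HT arrays 1 and 4 together, an alternative chosen after seeing the data, 41 genes were called, 32 lower and 9 higher, and 40 of them were among the 337. All 337 kept their direction without each single array. For the 316 whose groups did not overlap this could not have come out otherwise. In all 8 leave-outs 105 genes were called, 74 lower and 31 higher, and the other 232 lost their call in at least 1.

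Settings other than the arrays ended further calls of named genes. With each gene represented by the mean of its probe sets, Bcl2, Cdkn1b, E2f2, Fen1, Gstm3, Hivep3, Me1 and Slc40a1 were no longer called. E2f2 and Slc40a1 have a single probe set, so their own values were the same and only the fit over the other genes differed. Array weights ended the calls of Alox5ap, Cdkn1b, Cfb, Dscc1, E2f2, Gclc, Hivep3, Il1f6, Me1, Nos2, Nqo1, Osm, Rel, Siglec1, Slc40a1, Sprr2j-ps and Tm7sf2. Renewed quantile normalization ended those of Cdkn1b, Gsto1, Slc40a1 and Tm7sf2, and centring those of Cdkn1b, Sprr2j-ps and Tm7sf2.

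**Figure D5:**
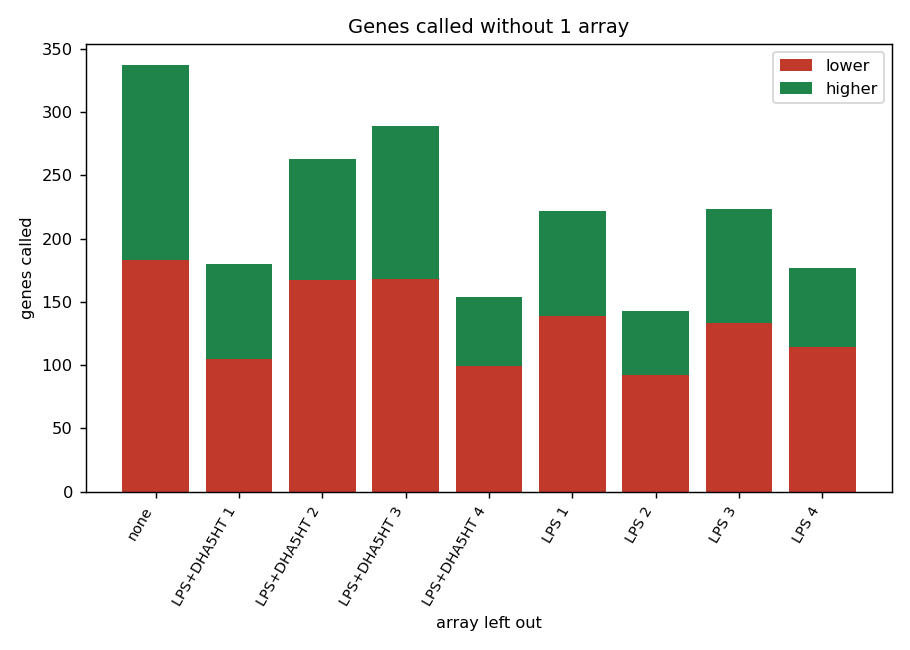
Genes called lower (red) and higher (green) in LPS+DHA5HT against LPS arrays (number of genes, vertical axis) with all 8 arrays (none) and without each array (horizontal axis). Counts fall from 337 to between 143 and 289.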

How the data were processed

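RNA from RAW264.7 cells (4 groups of 4) was measured on Affymetrix whole-transcript arrays, 100 ng of RNA each with RIN above 8, per the labels' protocols. The deposited values are log2 probe set levels that the authors made with RMA, per the submitters' processing notes; its version is not given in the sources used here. Of 35556 probe sets, 21218 are annotated to 1 gene, 1881 to several and 12457 have no gene named here. Each of 18820 genes was represented by its single-gene probe set with the highest mean over the 16 arrays (1386 genes had several), and 18790 matched the RefSeq gene table.

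Group means over all 16 arrays were fitted by lmFit and eBayes of limma (version 3.58.1, R 4.3.3; 12 residual degrees of freedom), with contrasts for LPS+DHA5HT minus LPS, DHA5HT minus control and the difference between both. P-values were two-sided and adjusted by Benjamini-Hochberg over all genes, with a threshold of 0.05. On simulated data the fit recovered 77% of log2 shifts of 0.5 and 100% of shifts of 1 in LPS-treated cells, with 4.32% of calls false. The simulated arrays were independent and had the same spread in all groups, so they held no pairs and no outlying array. These shares hold for that setting only and are not the error rate of the real calls. Replicate numbers come from the titles. Deviations from the group means correlated at 0.116 to 0.205 between same-numbered LPS and LPS+DHA5HT arrays, all 4 over 0.1. Between arrays of unlike number they correlated at −0.154 to 0.127, so the ranges overlapped and a pairing is not certain. The main fit holds no block. The numbers were used as a block in an alternative fit, and the blocked value is given where it changes the call of a named gene or moves a count by over 1.5 times.

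Genes named are the 30 largest called changes in each direction whose groups did not overlap, leaving out predicted genes, small RNAs and olfactory or vomeronasal receptor genes. Called and key genes of the 50 lists and marker genes are named too. Both the comparison and the lists were chosen with earlier results of these data known. Alternatives were the replicate block, an intensity trend, a filter on dim genes, renewed quantile normalization, centring, the mean of probe sets, array weights, the compared arrays alone, a threshold of 0.01 and leaving out arrays. Promoter windows are RefSeq's, read from 250 bases before to 50 after each start. Protein sequences were not used here.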

Additional observations from a re-analysis of the deposited data

Results flagged for a closer look

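In each group of 4 arrays the highest or lowest value of a named gene was tested for standing apart from the other 3 by Dixon's ratio, which chance alone exceeds in about 1 in 20 groups. Of the 400 groups looked at, 15 did so. LPS+DHA5HT array 4 was the one apart in 6: Serpinb2 at 8.20 (others from 10.04 to 10.35), Slc40a1 at 8.81 (7.72 to 7.83), Ak8 at 6.33 (5.67 to 5.78), Il1f6 at 4.97 (5.76 to 5.88), Cxcl3 at 4.14 (4.68 to 4.78) and Alox5ap at 10.86 (10.59 to 10.62). Elsewhere in that group Inhba stood apart on array 2 at 8.74 (7.71 to 7.80), Cd40 on array 3 at 8.58 (8.43 on the others), Ptgr1 on array 3 at 8.07 (8.24 to 8.27) and Mmp12 on array 1 at 11.98 (12.14 on the others). In the LPS group array 1 was apart for Chaf1b at 8.19 (7.95 to 7.97), Daxx at 8.74 (8.91 to 8.95), Slc22a18 at 5.56 (5.97 to 5.99) and Me1 at 9.65 (9.79 to 9.81), and array 2 for Ebi3 at 10.48 (10.34 to 10.36).

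The change with DHA5HT differed between cells with and without LPS for 30 named genes by the interaction test in limma. The log2 difference (change with LPS minus change without) was negative for U90926 (−2.51), Cstdc4 (−2.07), Sprr2f (−2.04), Sprr2e (−1.96), Il12b (−1.85), Nr4a3 (−1.80), Sprr2d (−1.69), Krt23 (−1.53), Csn1s1 (−1.50), Mmp13 (−1.45), Acpp (−1.43), Tnnt2 (−1.39), Tnn (−1.33), Heatr9 (−1.28), AI504432 (−1.18), Il23a (−1.06), Csta3 (−1.0), Pecam1 (−0.99), Abca1 (−0.82), Mmp25 (−0.79), Bcl2 (−0.62) and Bbc3 (−0.59). For Il12b, Il23a, U90926, Cstdc4, Sprr2d, Sprr2e, Sprr2f, Nr4a3, Krt23, Csn1s1, Acpp, Tnn, Heatr9, AI504432, Csta3 and Pecam1 the control mean left less room above the level of 3.76 than the size of the decrease with LPS. It was positive for Irf7 (2.03), Ifit1 (1.37), Isg15 (1.37), Dhx58 (1.23), Gbp7 (0.96), Cmpk2 (0.95), Gbe1 (0.78) and Arntl (0.39).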

How the results depend on the processing

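Against 337 genes called in LPS-treated cells (154 higher, 183 lower), the replicate block gave 647 (323 and 324), the genes above the median gene alone 557 (288 higher), the compared arrays alone 86 (13 and 73) and a threshold of 0.01 81 (20 and 61). Leaving out LPS+DHA5HT arrays 1 and 4 together, chosen after seeing the data, gave 41 (9 and 32). Leaving out 1 array gave 143 to 289 genes in all, 51 to 121 higher and 92 to 168 lower. Without LPS, 113 genes became 179 with the block and 83 to 116 when 1 array was left out. The difference between the effects, 62 genes, became 96 with the block, 28 at 0.01 and 34 to 62 when 1 of the 16 arrays was left out. The cause of these shifts was not tested, except that fewer arrays or fewer genes entered some fits. An intensity trend, renewed quantile normalization, centring, the mean of probe sets and array weights kept each of these counts within 1.5 times. None of the 200 named genes reversed a called direction in any alternative. Where the groups did not overlap, leaving out an array could not reverse it. The block ended no call among them and added 12, while the compared arrays alone ended 84 of the 139. Genes near 3.76 have changes limited by signal over background.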
